A study of Mus musculus with 2 samples.

Results

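Binding of the coactivator p300 was examined around 5 genes of the BMP and TGF-beta pathways, Smad3, Smad6, Bmp2, Bmp4 and Tgfb2, in hearts and midbrains of mouse embryos. Each gene was represented by a window of the mm9 genome that carries its name, and every p300 peak of either tissue's list with its midpoint inside a window was taken. This gave 17 peaks of 6383 in all, 16 from the heart list of 3597 and 1 from the midbrain list of 2786. The windows were chosen by the peak calls and reads of these same libraries, so the numbers of listed peaks and the reads of a library at its own peaks are descriptions that carry no test. The windows were Smad3 on chromosome 9 from 63.45 to 63.7 Mb, Smad6 on chromosome 9 from 63.75 to 64.05 Mb, Bmp2 on chromosome 2 from 133.1 to 133.8 Mb, Bmp4 on chromosome 14 from 46.6 to 47.4 Mb and Tgfb2 on chromosome 1 from 188.2 to 188.8 Mb.

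The heart group and the midbrain group each consisted of 1 chromatin immunoprecipitation library from CD-1 embryos at embryonic day 11.5, pooled from about 150 embryos of both sexes. No allele, transgene or treatment is given for either group, and both were precipitated with an antibody against p300. The dissection protocol given with the libraries mentions limb, forebrain and midbrain but no heart. Aligned reads numbered 1303861 for the heart and 5869671 for the midbrain. Scaled to reads per 1000000 aligned reads (rpm), a single read counted 0.767 rpm for the heart and 0.170 rpm for the midbrain. No difference between the tissues could be checked against replicates, and the intervals given here cover counting error only. Because whole tissues were dissected, fewer cells with binding and less binding per cell cannot be told apart.

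Ligands of the BMP and TGF-beta families bind pairs of serine and threonine kinase receptors, which phosphorylate receptor SMAD proteins that then enter the nucleus with SMAD4. p300 is a histone acetyltransferase that sits at many active enhancers and is also known as a partner of receptor SMADs. In the embryonic heart BMP2, BMP4 and TGF-beta 2 are known for their part in the atrioventricular canal, the outflow tract and the cushions that become valves, and SMAD6 is a feedback inhibitor that mainly restrains BMP signalling. In the RefSeq gene order of the GRCm38 build, Smad3 and Smad6 are neighbours, with Aagab on the far side of Smad3 and Lctl on the far side of Smad6. Bmp2 lies between Fermt1 and Hao1, Bmp4 between Ddhd1 and Cdkn3, and Tgfb2 between Lyplal1 and Rrp15. An mm9 gene annotation was not used here, so a peak is assigned to a window and not to a gene, an exon or a promoter.

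Most listed peaks at these loci were heart peaks, and most of those lay in the Smad6 window. The Smad6 window held 9 heart peaks, the Tgfb2 window 3, the Smad3 and Bmp4 windows 2 each and the Bmp2 window none. The midbrain list had a single peak, in the Bmp2 window. Over the 2650 kb of all windows the density was 6.04 heart peaks per Mb (exact Poisson 95% interval 3.45 to 9.80), against 1.36 per Mb for the whole heart list on chromosomes 1 to 19 and X. By window it was 30 per Mb for Smad6 (interval 13.7 to 56.9), 8 for Smad3 (interval 0.969 to 28.9), 5 for Tgfb2 (interval 1.03 to 14.6), 2.5 for Bmp4 (interval 0.303 to 9.03) and 0 for Bmp2 (interval up to 5.27). Outside Smad6 such counts were less rare in the genome: as many heart peaks or more were found in 7.58% of tiles as long as the Smad3 window, 10.4% for Tgfb2 and 26.1% for Bmp4, and 58.1% of tiles as long as the Bmp2 window held none. For midbrain peaks the density over all windows was 0.377 per Mb (interval 0.00955 to 2.10), against 1.06 per Mb for the whole midbrain list.

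**Figure D1:**
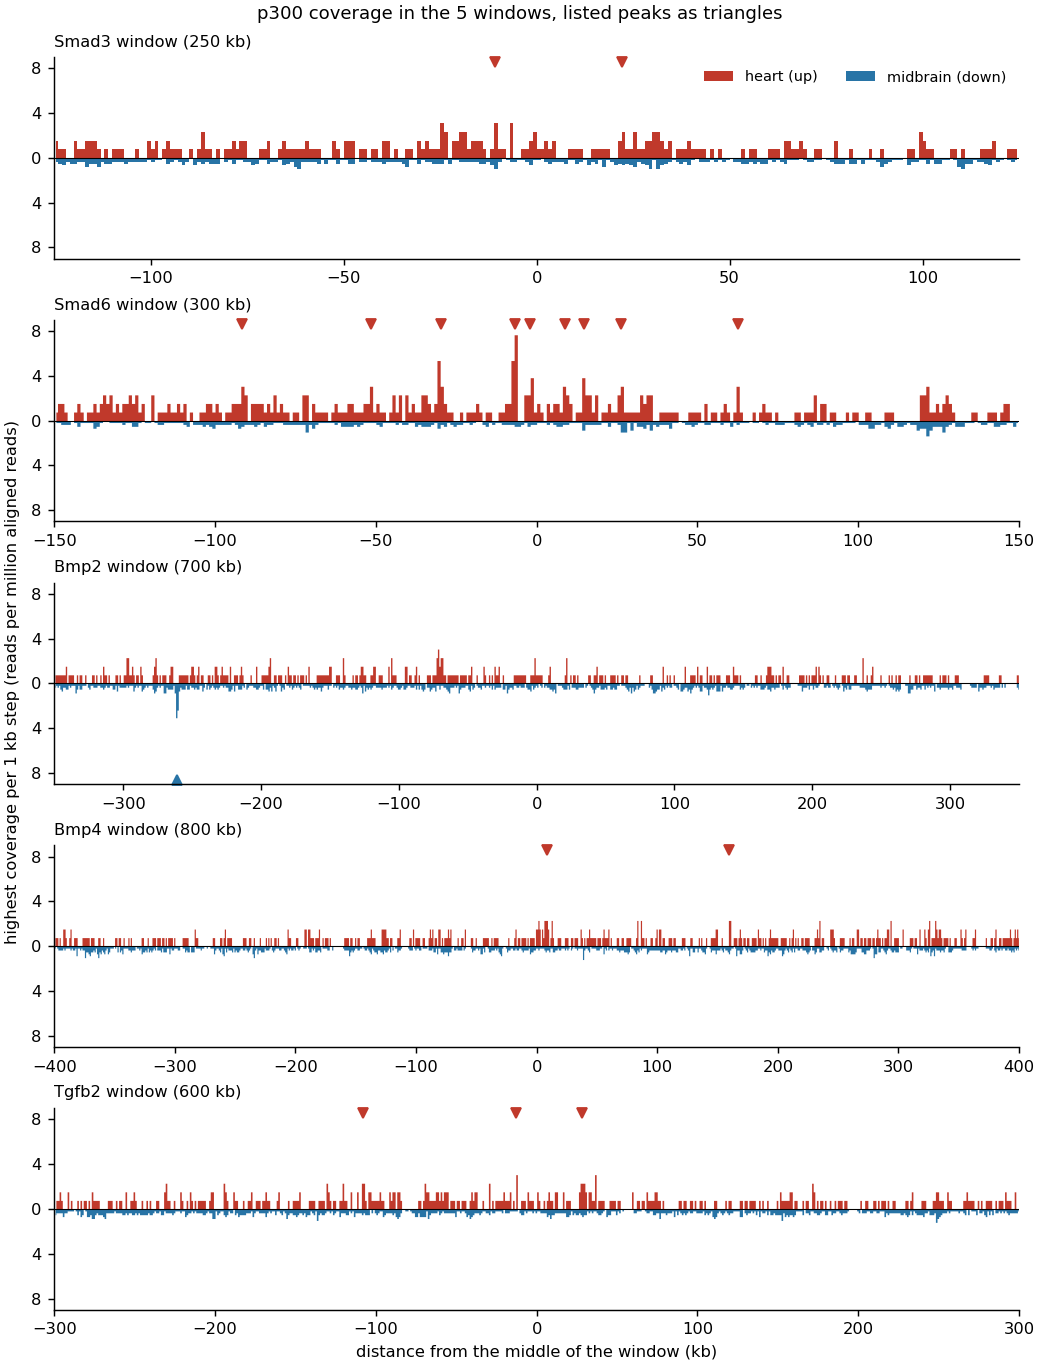
Highest deposited coverage in each 1 kb step, per 1000000 aligned reads, across the 5 windows (heart upwards, midbrain downwards); x is the distance from the middle of the window in kb and triangles mark listed peaks of the heart (top) and the midbrain (bottom). The Smad6 window shows 9 heart triangles over a raised heart track, and the 1 midbrain triangle stands in the Bmp2 window, where the heart track is at 0.

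Smad6, the inhibitory SMAD, had the densest cluster. Its 9 heart peaks followed each other at distances of 4.89 to 40.1 kb (median 16.5 kb, midpoint to midpoint) and formed a single run in which every peak lay within 50 kb of the next. Only 3 runs of the whole heart list held more peaks, and the longest held 14. When chromosomes 1 to 19 and X were cut into 8786 tiles of 300 kb, 6 tiles (0.0683%) held 9 or more heart peaks. The tiles lie at fixed positions and can cut a run apart, whereas the window was placed with its peaks known. The share is therefore a description and can understate how common such runs are. In the heart list 6 runs, this one included, held at least 9 peaks. No midbrain peak lay in the window, which 80.5% of such tiles also lacked, and the nearest midbrain peak was 426 to 580 kb away from the 9 heart peaks.

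The cluster had 1 prominent member. The peak on chromosome 9 at 63892737 to 63893592 (mm9) has rank 11 in the heart list, with 16 heart reads (12.3 rpm) and 4 midbrain reads (0.681 rpm). Its heart over midbrain ratio was 18.0 (exact conditional binomial 95% interval 5.81 to 74.0), and its heart coverage reached 10 reads, its midbrain coverage 3. This was the strongest heart signal among the 17 peaks: 98.9% of the heart list had fewer heart reads. The heart maximum lay at -14.5 bp from the midpoint of the peak. The highest midbrain coverage lay at 323 bp, but it is only 3 reads. Away from listed peaks midbrain coverage in this window reached 8 reads, so the 2 positions cannot be compared as summits.

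The other 8 Smad6 peaks were weak by comparison, with 3 to 7 heart reads. The second-best rank, 949, belongs to the peak at 63914434 to 63915016, where 6 heart and 3 midbrain reads gave a ratio of 9.0 (interval 1.92 to 55.6). At 63962327 to 63962911 (rank 1063) there were 6 heart reads and 1 midbrain read, a ratio of 27.0 (interval 3.28 to 1242). At 63925681 to 63926473 (rank 1150) there were 7 heart and 2 midbrain reads, a ratio of 15.8 (interval 3.0 to 155). With so few reads the ratios differ between peaks by less than their intervals, so that no order among these 8 peaks can be read from them. Of 3 peaks further down the list, 63897850 to 63898250 (rank 1886) held 5 heart reads and 1 midbrain read, and 63908467 to 63909009 (rank 2175) held 5 heart and 2 midbrain reads. The third, 63848380 to 63848902 (rank 2323), held 5 heart reads and 0 midbrain reads, which is at least 7.50-fold higher in the heart when the midbrain count is set to the limit of 3 reads that a count of 0 allows and the 5 heart reads are taken as exact. With the counting error of the heart reads as well, the interval of the ratio began at 4.13. The outermost peak, 63808284 to 63808774 (rank 2499), held 5 heart and 3 midbrain reads.

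The remaining Smad6 peak had more heart coverage beside its boundaries than within them. On chromosome 9 at 63870089 to 63870433, with 345 bp the narrowest of the 17 peaks, it has rank 1120 and held 3 heart and 2 midbrain reads. Its ratio of 6.75 had an interval of 0.774 to 80.8, the only one among the 16 heart peaks that included 1. Heart coverage within the boundaries reached 3 reads, but 7 reads outside them, at -486 bp from the midpoint. The 500 bp around that point held 9 heart and 3 midbrain reads, a ratio of 13.5 (interval 3.37 to 77.6). None of the other 15 heart peaks had higher heart coverage in the 1 kb on either side than within its boundaries, and in the whole heart list 5.81% of peaks did. This site was picked out after its values had been seen.

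**Figure D2:**
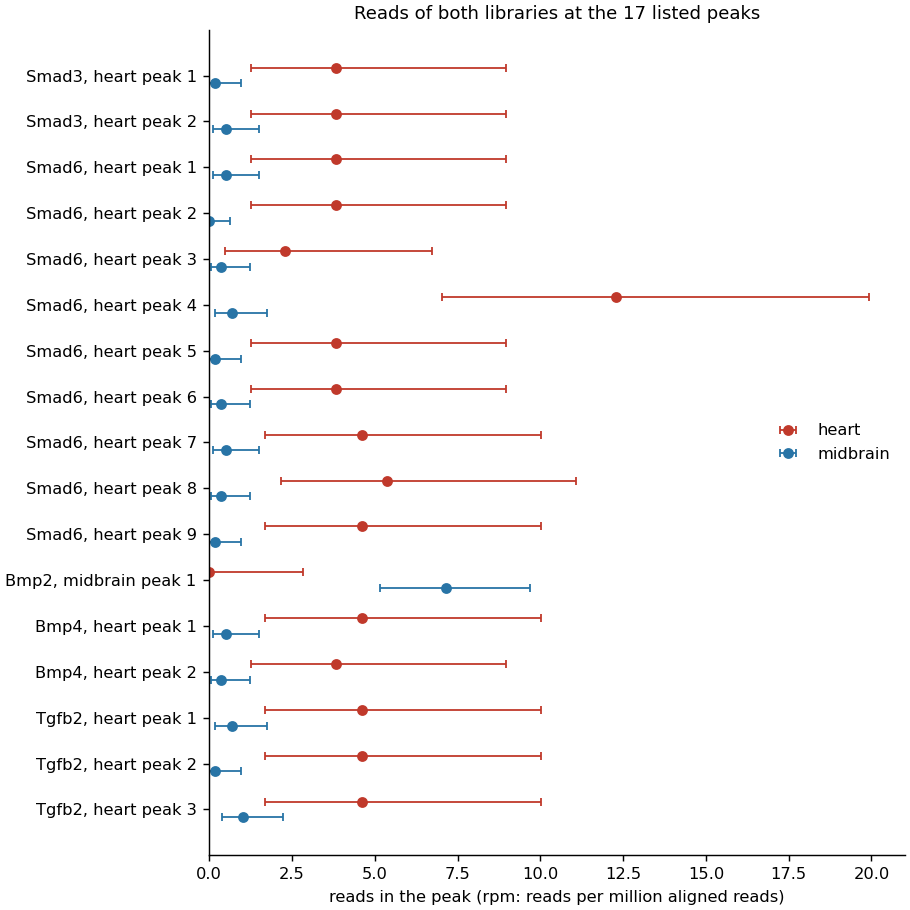
Reads in each of the 17 listed peaks, in rpm, for the heart and the midbrain library; points are counts scaled to the library and bars are exact Poisson 95% intervals (counting error only). Peaks are numbered along the chromosome within each window. The fourth Smad6 peak, at 12.3 rpm in the heart, stands apart from the other heart peaks, which lie between 2.30 and 5.37 rpm, and the Bmp2 peak is the only one where the midbrain point is the higher.

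Reads between the Smad6 peaks were also raised in the heart library. These reads lie outside the listed peaks but come from the libraries by which peaks and windows were chosen, and their part in the peak calls is not known. Outside listed peaks the window held 381 heart reads and 703 midbrain reads, which gave a ratio of 2.44 (interval 2.15 to 2.77). The heart density was 2.63 times the library mean (interval 2.37 to 2.90), and the midbrain density was 1.08 times its mean (interval 0.998 to 1.16). The excess was thus on the side of the heart library, while midbrain reads in the window lay near their mean. Among 8183 tiles of 300 kb that held at least 0.5 times the mean number of midbrain reads, the ratio outside listed peaks had a median of 0.926 and lay between 0.577 and 1.59 for the middle 90% of tiles. It reached the Smad6 value in 3 tiles (0.0367%), none of which overlaps the window. The tiles lie at fixed positions, and those that overlap the window also take in stretches beside it. The window was placed with results of these reads known, so this share is a description and can understate how common such stretches are. Listed peaks held 13.2% of all heart reads in the window and 2.50% of its midbrain reads.

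The excess was uneven along the window. In the 6 bins of 50 kb that make up the window, the heart density outside listed peaks was 3.05, 3.36, 3.49, 2.66, 1.48 and 1.75 times the library mean, from the lower to the higher coordinate. In the same bins the midbrain density was 0.794, 1.12, 1.11, 1.12, 0.822 and 1.49 times its mean. The heart density was thus higher in the first 4 bins than in the last 2. The interval of the fourth bin (2.046 to 3.41) overlaps, however, those of the fifth (1.04 to 2.050) and the sixth (1.26 to 2.35). The first bin held no listed peak of either tissue, with 75 heart and 88 midbrain reads, and had the highest ratio of all 53 bins in the 5 windows (3.84, interval 2.78 to 5.28). The interval lay above 1 in 5 of the 6 bins. Among 48460 bins of 50 kb on chromosomes 1 to 19 and X, it did so in 11.7%. Only bins with at least 0.5 times the mean number of midbrain reads were counted for this share. In the other 4 windows the interval lay above 1 in 3 of 5 bins for Smad3, 2 of 14 for Bmp2, 3 of 16 for Bmp4 and 3 of 12 for Tgfb2. It lay below 1 in 1 bin each of the Bmp2, Bmp4 and Tgfb2 windows and in 0 of the Smad3 and Smad6 windows. In the 7 bins directly above the window the heart density was 0.854 to 1.26 times the mean and the midbrain density 0.704 to 1.31 times. Below the window the heart density was 1.63 times the mean in the adjoining bin and 0.894 to 2.54 times in the 5 bins of the Smad3 window.

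**Figure D3:**
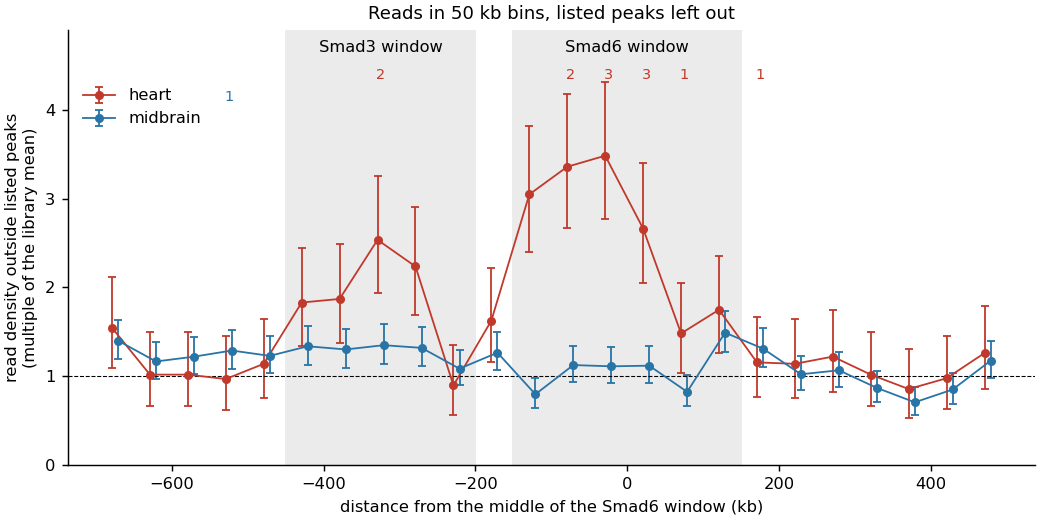
Read density outside listed peaks in 50 kb bins around the Smad3 and Smad6 windows (shaded), as a multiple of the library mean, for the heart and the midbrain; bars are exact Poisson 95% intervals, and the coloured digits give the number of listed heart and midbrain peaks per bin. Heart densities of 2.66 to 3.49 fill 4 neighbouring bins of the Smad6 window, a lower rise to 2.54 stands in the Smad3 window, and midbrain densities stay between 0.704 and 1.49.

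Smad3, the receptor SMAD that carries TGF-beta and activin signals, had 2 weak heart peaks and none in the midbrain list. The peak on chromosome 9 at 63563981 to 63564432 (rank 2418) held 5 heart reads and 1 midbrain read (3.83 and 0.170 rpm), a ratio of 22.5 (interval 2.52 to 1065). The one at 63596801 to 63597467 (rank 3086) held 5 heart and 3 midbrain reads, a ratio of 7.50 (interval 1.46 to 48.3). A count of 5 heart reads is the lower quartile of the whole heart list, whose median is 6. With lengthened reads that overlap the peak the first ratio was 4.50 (interval 1.04 to 19.6). The second peak's interval then included 1 (0.906 to 14.8), as it did with read ends moved by 150 bp and with scaling to the window's own reads. Outside the peaks the Smad3 window held 229 heart and 704 midbrain reads, a ratio of 1.46 (interval 1.26 to 1.70). Of 9828 tiles of 250 kb, 8.88% had a ratio as high, and the Smad3 value lay within the middle 90% of them (0.573 to 1.60). The heart density by itself was 1.87 times the library mean (interval 1.64 to 2.13), which 2.28% of the tiles reached, and the midbrain density was 1.28 times its mean (interval 1.18 to 1.37), which 11.1% reached. The heart density was highest, at 2.54 times the mean, in the 50 kb that hold both peaks, where the midbrain density was 1.35 times the mean.

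Between the raised bins of the Smad3 and Smad6 windows lay 2 bins with a lower heart density. The last 50 kb of the Smad3 window had 22 heart and 120 midbrain reads, 0.894 and 1.08 times the library means, with a ratio of 0.825 (interval 0.499 to 1.31). The 50 kb between the windows had 40 heart and 140 midbrain reads (ratio 1.29, interval 0.882 to 1.84), 1.63 times the mean in the heart (interval 1.16 to 2.21) and 1.26 times in the midbrain. The nearest listed peaks beyond these windows were a heart peak and a midbrain peak. The heart peak, at 64079194 to 64079892, lies 29.5 kb above the Smad6 window and held 5 heart and 0 midbrain reads. The midbrain peak, at 63381740 to 63383377, lies 67.4 kb below the Smad3 window and held 1 heart read and 33 midbrain reads.

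Tgfb2, the ligand of the TGF-beta family in this group, had 3 heart peaks with 6 heart reads each (4.60 rpm). The midbrain reads differed more, with 4 at chromosome 1 188391769 to 188392684 (rank 3126), 1 at 188487143 to 188487712 (rank 1026) and 6 at 188527558 to 188528319 (rank 1647). The heart over midbrain ratios were 6.75 (interval 1.60 to 32.5), 27.0 (interval 3.28 to 1242) and 4.50 (interval 1.20 to 16.8) in the same order. The last of these peaks had the lowest ratio and the most midbrain reads of the 16 heart peaks, and midbrain reads there were 2.46 times as dense as in flanks 5 to 10 kb away (interval 0.841 to 5.97). The second and the third lie 40.5 kb apart, the first 95.2 kb from the second, and the nearest midbrain peak is 827 kb or more from each. Beyond the window the next heart peaks are 63.8 kb below it (chromosome 1 at 188135647 to 188136688, 6 heart reads and 1 midbrain read) and 332 kb above it. Outside the peaks the ratio was 1.10 (389 heart and 1599 midbrain reads, interval 0.978 to 1.22), a value reached by 33.0% of 4119 tiles of 600 kb.

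Bmp4, a BMP ligand, had 2 heart peaks that rank near the end of the list. The peak on chromosome 14 at 47007787 to 47008637 (rank 2857) held 6 heart and 3 midbrain reads, a ratio of 9.0 (interval 1.92 to 55.6). That at 47159338 to 47160018 (rank 3172) held 5 heart and 2 midbrain reads, a ratio of 11.3 (interval 1.84 to 118). They lie 151 kb apart, and heart coverage reached 3 reads in each. Outside the peaks the window held 482 heart and 1829 midbrain reads, a ratio of 1.19 (interval 1.07 to 1.31), which 23.7% of 3093 tiles of 800 kb reached. The 50 kb that hold the first peak had 46 heart and 100 midbrain reads outside it (ratio 2.07, interval 1.43 to 2.96). The last 50 kb of the window, without a listed peak, had a like ratio of 2.10 (36 heart and 77 midbrain reads, interval 1.38 to 3.17), and the 50 kb before them 1.66 (interval 1.11 to 2.43). The nearest midbrain peak was 1266 kb or more from each Bmp4 peak. Heart peaks just beyond the window lie 23.6 kb below it (46576116 to 46576603, 4 heart and 2 midbrain reads) and 105 kb above it (47504577 to 47506327, 11 heart and 11 midbrain reads).

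Bmp2, the other BMP ligand, had no heart peak and 1 midbrain peak, and 35.9% of tiles of 700 kb held 1 or more midbrain peaks. The midbrain peak, on chromosome 2 at 133188358 to 133189518 (mm9, rank 108), had 0 heart reads and 42 midbrain reads (7.16 rpm). The exact interval of the heart over midbrain ratio ended at 0.413. Taking the 42 midbrain reads as exact and the heart count at the limit of 3 reads gave a midbrain over heart ratio of at least 3.11, which leaves out the counting error that the interval holds. Heart coverage was 0 at every 25 bp step of the peak, and midbrain coverage reached 18 reads. This peak was wide, at 1161 bp against a median of 743 bp, and 94.0% of the midbrain list had fewer midbrain reads. An interval on the midbrain side was found for 21.6% of the midbrain list, and 40.7% of that list held 0 heart reads. The heart library's depth limits this comparison, since a count of 0 allows up to 2.30 rpm.

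Away from its peak the Bmp2 window differed little between the libraries. It held 400 heart and 1749 midbrain reads outside the peak, a ratio of 1.03 (interval 0.921 to 1.15), and 40.4% of 3529 tiles of 700 kb had a ratio as high. At 1 place without a listed peak, heart coverage reached 4 reads, which is the median of the highest coverage over the heart list. Away from listed peaks it also reached 4 at 2 places of the Smad3 window and 1 each of the Smad6 and Tgfb2 windows. The Bmp2 place lies on chromosome 2 at 133377901 to 133378400 and held 3 heart and 0 midbrain reads. The interval of its ratio began at 1.86. Both counts are at or under the limit that a count of 0 allows, so no fold is given. The nearest heart peak beyond the window, 127 kb below it at 132972380 to 132973154, held 5 heart and 0 midbrain reads.

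Pooled, the 16 heart peaks held 97 heart reads and 38 midbrain reads, a pooled ratio of 11.5 (interval 7.82 to 17.2), against 7.95 (interval 7.78 to 8.12) for all 3597 heart peaks. By window the pooled ratio was 14.5 for Smad6 (interval 8.43 to 26.2), 11.3 for Smad3 (interval 3.25 to 49.2), 9.90 for Bmp4 (interval 3.17 to 36.4) and 7.37 for Tgfb2 (interval 3.29 to 17.3). The intervals of these windows all overlap, so no order among them can be read. With lengthened reads that overlap a peak the Smad3 value was 4.09. An interval above 1 was found for 15 of the 16 peaks and for 89.9% of the whole heart list, and the ratio was at least 4 at 16 of 16 and at 88.3% of the list. These shares are near the background, and the reads that make them chose the peaks. The count was 11 of 16 when reads were scaled to those of the window outside listed peaks, 12 with 99% intervals, and 3 after thinning of midbrain reads to the heart's number. Measured against the reads of their own window outside listed peaks, the Smad6 peaks had a pooled ratio of 5.95 (interval 3.45 to 10.7), since the raised heart reads of that window then count as background.

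**Figure D4:**
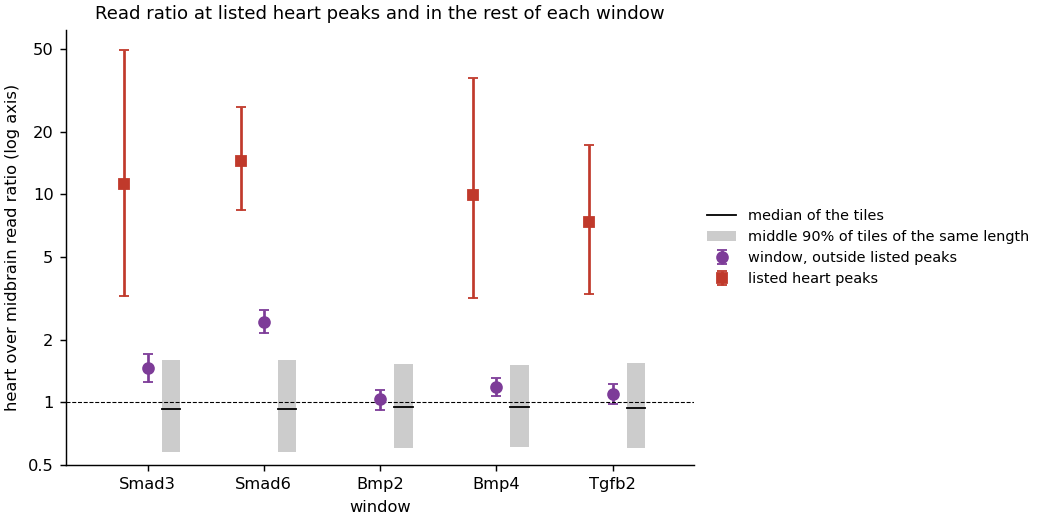
Heart over midbrain read ratio (log axis) at the listed heart peaks of each window (squares) and in the rest of the window (circles). Bars on the points are exact conditional binomial 95% intervals. Grey bars span the middle 90% of tiles of the same length with at least 0.5 times the mean midbrain reads. The black line is the median of those tiles. Outside the peaks, the Smad6 window at 2.44 lies above its grey bar, and the other windows, at 1.03 to 1.46, lie within theirs. Bmp2 has no heart peak.

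Within each library the peaks were set against flanks 5 to 10 kb away. Heart reads were 6.68 times as dense at the 16 heart peaks as in the flanks (interval 5.21 to 8.50), against 9.62 for the whole heart list (interval 9.46 to 9.78). Midbrain reads, whose use in the listing of heart peaks is not given in the sources used here, were 1.42 times as dense at the same peaks (interval 0.992 to 1.98), against 1.89 for the whole list (interval 1.85 to 1.92). Of the 232 heart reads in these flanks, 143 lay beside Smad6 peaks, whose flanks partly overlap and hold other listed peaks. With flanks 10 to 20 kb away, heart reads were 7.57 times as dense at the 16 peaks (interval 6.01 to 9.47). Midbrain reads were then 1.61 times as dense (interval 1.13 to 2.23). The whole list was not recomputed with those flanks. Against flanks 5 to 10 kb away, the prominent Smad6 peak was 37.4 times as dense in heart reads (interval 13.1 to 130), and the midbrain value there was 2.34 (interval 0.581 to 6.97). The heart value rests on 5 heart reads in the flanks. The window outside listed peaks held 1.29 heart reads per kb, so against the whole window the value would be lower. At the Bmp2 peak, heart reads numbered 0 in the peak and 5 in its flanks, and midbrain reads were 10.3 times as dense in the peak as in its flanks (interval 6.44 to 16.7).

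**Figure D5:**
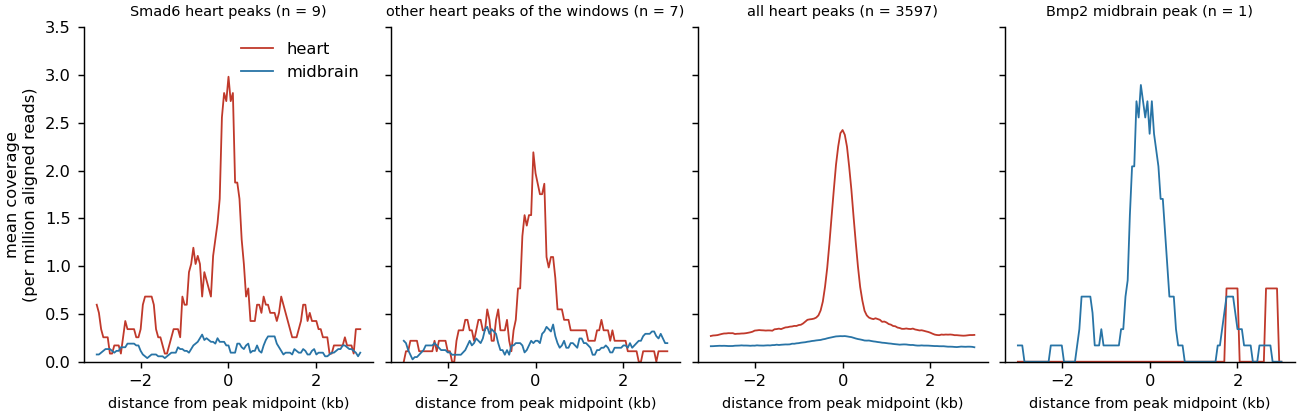
Mean deposited coverage per 1000000 aligned reads around peak midpoints (x, kb) for the 9 Smad6 heart peaks, the other 7 heart peaks of the windows, all 3597 heart peaks and the Bmp2 midbrain peak. Heart coverage is centred on the midpoints of the heart peaks while midbrain coverage stays low, with a shoulder to the left of the midpoint in the Smad6 group, and at the midpoint of the Bmp2 peak midbrain coverage is high and heart coverage 0.

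Most heart peaks of these loci had as few heart reads as the median of the list or fewer (14 of 16). In the whole heart list 68.9% of peaks also held fewer than 7 heart reads, that is, at most the median of 6. The median of the 16 was 5.5 heart reads, against 6 for the whole heart list. Their widths lay on both sides of the list's median of 662 bp, between 345 and 916 bp with a median of 584 bp. Of the 16, 1 ranks among the best 500 of the 3597 heart peaks, and 7 rank in the better 50% of the list, of which 5 lie in the Smad6 window. No peak overlapped one of the midbrain list (4.28% of all heart peaks did), and none had a midbrain peak within 100 kb (71.8% of all heart peaks had none). Another heart peak within 50 kb was found for 13 of 16 and for 44.7% of the list. The 9 Smad6 peaks, a single run in a window placed with its peaks known, are among those 13. Peaks of the same window share their neighbourhood, so the counts by distance are not made of separate observations and carry no test. Midbrain reads were absent at 1 of 16 (11.6% of the list), and 5 of 16 held 0 or 1 (30.1%). Reads of the plus strand made up 52.6% of the heart reads at the 16 peaks (51 of 97).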

How the data were processed

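The authors deposited, for each tissue, aligned reads (a count of 1 read per line, lengthened to 300 bp), whole-number coverage signal at 25 bp steps and a peak list with ranks, on mm9 per the file headers and the labels. The peak caller, its threshold and any control are not given in the sources used here. Peaks were taken by midpoint. Reads were placed by moving the 5 prime end by 23 bp (heart) and 32 bp (midbrain), from strand offsets of 46 and 64 bp within peaks, where the profiles were nearly flat and the search began at 46 bp. Counts were scaled to all aligned reads (rpm). Ratios carry exact conditional binomial 95% intervals. In both libraries 0 aligned reads repeated the position and strand of another, so copies at the same position do not add to the counts. Without molecular barcodes such copies cannot be told from separate molecules, and intervals and floors cover counting error alone. No p-value is given.

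The members, windows and lists were chosen with earlier results of these data known. Named in each window and list were the 2 best-ranked peaks, the peak with the highest bound towards its own library, any overlapping a peak of the other list, and that with most reads of the other library. The other peaks were added because there are few. Tiles, bins and sites beside peaks were chosen after the data had been seen. Tiles were cut at fixed positions, whereas the windows were placed with results known, so shares of tiles carry no test. Shares by read ratio or read density used only tiles and bins with at least 0.5 times the mean number of midbrain reads. A planned count over other pathway genes and a motif search were not made, since no mm9 annotation or genome was used here. For the same reason the tissues were not checked against marker genes and no sequence is printed. The intervals of the ratio were tested on simulated counts, and the counting of reads on a small made-up chromosome. Computations used scipy 1.17.1, numpy 2.4.6 and pandas 2.3.3 under Python 3.11.15, and figures matplotlib 3.10.9.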

Additional observations from a re-analysis of the deposited data

How the results depend on the processing

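Of 229 recomputed values, 215 differed from the reported one by less than its interval (counts by less than 1.5 times), 14 moved further and 0 turned their direction. Only read ratios could be scored as turned, and only once outside the reported interval. Many of those intervals are wide, and several counts compared 0 with 0. These totals are therefore no measure of how stable the results are. After midbrain reads had been thinned to the heart's number, 3 of the 16 heart peaks kept an interval on the heart side in place of 15, because fewer reads were counted, and the pooled Smad3 ratio had no value because no midbrain read was left. With lengthened reads that overlap a peak, the pooled ratio of all heart peaks was 7.76. Scaled to the window's own reads outside peaks, the pooled Smad6 ratio was 5.95. Among the best 50% of ranks of the heart list, 0 peaks remained in the Smad3 window, 5 in the Smad6 window and 0 in the Bmp4 window. With lists of equal length there were 1 in the Smad3 window and 0 in the Bmp4 window. The Smad6 ratio outside listed peaks lay between 2.21 and 2.54 in 4 alternatives. Those with peaks widened by 5 kb and with thinned reads, and the pooled ratios without the best-ranked peak, were chosen after the data had been seen. No paired analysis was possible because each tissue has 1 library. Leaving out a library leaves no comparison.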
